A study of Mus musculus with 6 samples.

Results

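The genes described here are 10 transcription factors of the circadian clock, measured in the ribosome-bound RNA of cortical cells that express S100a10 in mice. They are the activators Arntl, Clock and Npas2, the Rev-erb receptors Nr1d1 and Nr1d2, the Ror receptors Rora and Rorb, and the proline and acidic amino acid-rich (PAR) factors Dbp, Tef and Hlf. They were represented by all probe sets that the platform annotation gives to one of these symbols alone, 30 of 45037 once array controls were set aside. The 10 genes stand among 18193 that the annotation names in this way. Of the 30 probe sets, 22 had a geometric mean intensity of at least 50 over the 6 arrays and were tested, and each of the 10 genes had at least 1 of these. The other 8 lay below that minimum and are given by their values only.

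The samples came from S100a10 bacTRAP mice, in which a tagged ribosomal protein is made under the control region of S100a10, so that ribosomes of those cells can be purified from the tissue (TRAP). All 6 samples were cortex of this line, backcrossed from FVB onto C57BL/6 for 3 to 5 generations. In the fluoxetine group, 3 samples came from mice that drank fluoxetine, a serotonin reuptake inhibitor, at 0.167 mg/ml in 1% saccharine for 15 to 18 days. In the vehicle group, 3 samples came from mice that drank 1% saccharine alone for the same time. The labels call the samples biological replicates. Age, sex, the number of mice per sample and the time of day of collection are not given in the sources used here. A p-value here therefore reflects the spread among these samples alone, part of which may be technical. The submitters state that the line also labels some non-neuronal cells.

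In the circadian clock, ARNTL (also called BMAL1) pairs with CLOCK or its relative NPAS2 and switches on genes that carry E-box sequences, among them the Per and Cry repressors, the Rev-erb genes and the PAR factor genes. REV-ERB proteins repress, and ROR proteins activate, genes such as Arntl through a shared DNA element that contains the half-site AGGTCA. DBP, TEF and HLF activate genes that carry D-box sequences and so pass the rhythm on to metabolism and, in the brain, to neurotransmitter chemistry. Levels of Dbp, Nr1d1 and Arntl are known to depend on the time of day, and Rorb is also a known marker of layer 4 of the cortex.

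The letters of DNA elements through which these genes are known to control each other were searched near their annotated starts. RefSeq (GRCm38.p6) gave 15 annotated starts for the 10 genes, all 10 matched, each with 250 bases before and 50 after the start. The E-box CACGTG, the related CACGTT, the D-box TTATGTAA and the half-site AGGTCA were searched on both strands, with no overlap between matches in these windows. The following stretches are shown because they are all the matches that lie before an annotated start, with the match in capitals.
Tef, first start, chr15:81802516-81802581, plus strand, E-box: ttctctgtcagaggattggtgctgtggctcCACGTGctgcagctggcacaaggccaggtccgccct
Tef, other start, chr15:81811246-81811311, plus strand, E-box: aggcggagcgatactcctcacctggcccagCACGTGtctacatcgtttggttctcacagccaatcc
Nr1d1, chr11:98775378-98775435, minus strand, related E-box read on the other strand: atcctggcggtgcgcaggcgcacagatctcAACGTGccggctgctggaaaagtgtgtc
Nr1d2, chr14:18239148-18239213, minus strand, half-site: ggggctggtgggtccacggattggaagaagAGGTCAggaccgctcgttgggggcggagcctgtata
Clock, last listed start, chr5:76303586-76303651, minus strand, half-site read on the other strand: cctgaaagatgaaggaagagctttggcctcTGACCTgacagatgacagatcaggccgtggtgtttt
Rorb, other start, chr19:19001316-19001367, minus strand, related E-box read on the other strand: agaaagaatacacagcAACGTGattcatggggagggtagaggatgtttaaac

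The E-box lay in 2 of the 15 windows, both of Tef, and in 7.15% of all 32851 windows of this length. CACGTT lay in 2 of 15, in Nr1d1 and in 1 start of Rorb, and in 4.68% of all windows. The half-site lay in 3 of 15, in Clock, in Nr1d2 and, after the start, in Arntl, and in 16.3% of all windows. The D-box lay in 0 of 15 and in 0.938% of all. These matches describe the letters in short windows and are not evidence of binding.

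Deposited intensities were compared on the log2 scale, with limma across all 22326 tested probe sets. The arrays had median intensities of 47.3 to 48.6 over all probe sets, but upper quartiles of 498 on fluoxetine 2 to 574 on vehicle 2. Over the tested probe sets, the median deviation of an array from the mean of the others ran from −0.069 on fluoxetine 2 to 0.103 on vehicle 2. Several arrays stood apart, in different gene lists. A list of 20 immediate early genes averaged 0.44 below its own mean on fluoxetine 1 and 0.52 above it on vehicle 2. Of the 20, 19 differed below 0 between the groups, against 68.5% of all genes, with a median of −0.37. By limma, 6 of them had an unadjusted p under 0.05, against 2.52% of all tested probe sets, and 0 passed after adjustment. This list, too, was chosen with earlier results of these data known. Fluoxetine 2 was the lowest array in 4 of 5 pan-neuronal markers and averaged −0.63 in astrocyte markers, against 0.98 on fluoxetine 1, and −0.50 in both oligodendrocyte and oligodendrocyte precursor markers. The astrocyte averages rested heavily on Gfap, which read 12.13 on fluoxetine 1 and 4.49 on fluoxetine 2. Of the 8 astrocyte markers, 5 were highest on fluoxetine 1 and 5 lowest on fluoxetine 2. Array weights estimated by limma were 0.591 for fluoxetine 1 and 0.635 for fluoxetine 2, the lowest, and 1.21 for vehicle 2. S100a10 itself read 14.98 to 15.22 in log2 on the 6 arrays. Markers of pan-neuronal (5 of 5), pyramidal (3 of 4) and layer 5 cells (5 of 6) were above the minimum, but so were those of inhibitory neurons (6 of 6), astrocytes (8 of 8) and meninges (6 of 6). With no unpurified RNA used here, these levels do not show how far the purification enriched the labelled cells. In such bulk RNA, fewer cells of a type and less RNA per cell cannot be told apart.

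No member gene passed the test for a difference between fluoxetine and vehicle. By limma, 0 of the 22 member probe sets had a Benjamini-Hochberg adjusted p below 0.05, and each stood at 0.999. Over the whole array 0% of tested probe sets were called in this way. At an unadjusted p under 0.05 there were 0 of 22 member probe sets, against 2.52% of all tested. That 0 rests on 1 probe set of Rorb, described with that gene, whose unadjusted p by limma was 0.05 after rounding. The count became 1 under several alternatives, among them a minimum of 100 and a trended, robust variance, and 2 without vehicle 3. With no filter it was 2 of 30, a count that takes in the 8 probe sets below the minimum. The probe set was not always the one of Rorb. Without fluoxetine 2 it was 1418174_at of Dbp (−0.370 ± 0.123, SE). Without fluoxetine 1 and vehicle 2 it was 1439862_at of Rorb, in the other direction (0.585 ± 0.187). The groups did not overlap in 0 of 22, against 8.05% of all. Fluoxetine minus vehicle was below 0 in 21 of the 22 probe sets, against 66.3% of all probe sets, and in 9 of the 10 genes when each was taken by its brightest probe set, against 68.5% of all genes. The median difference over the 10 genes was −0.12 in log2, and over all genes −0.06.

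That lean to lower values depended in part on how the arrays were scaled. After quantile normalization, 7 of the 10 genes lay below 0 with a median of −0.05. By probe sets it was 19 of the 22 members, against 50.2% of all. With the arrays brought to a common median of the tested probe sets, an alternative chosen after seeing the data, 8 of 10 genes did, with a median of −0.06. By probe sets it was 20 of the 22, against 49.2% of all. Without fluoxetine 1 and vehicle 2 the median was −0.04 and 13 of the 22 probe sets were below 0, against 60.7% of all. The intervals show how large a change could have gone unseen: every 95% interval held 0, and standard errors ran from 0.10 to 0.56.

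**Figure D1:**
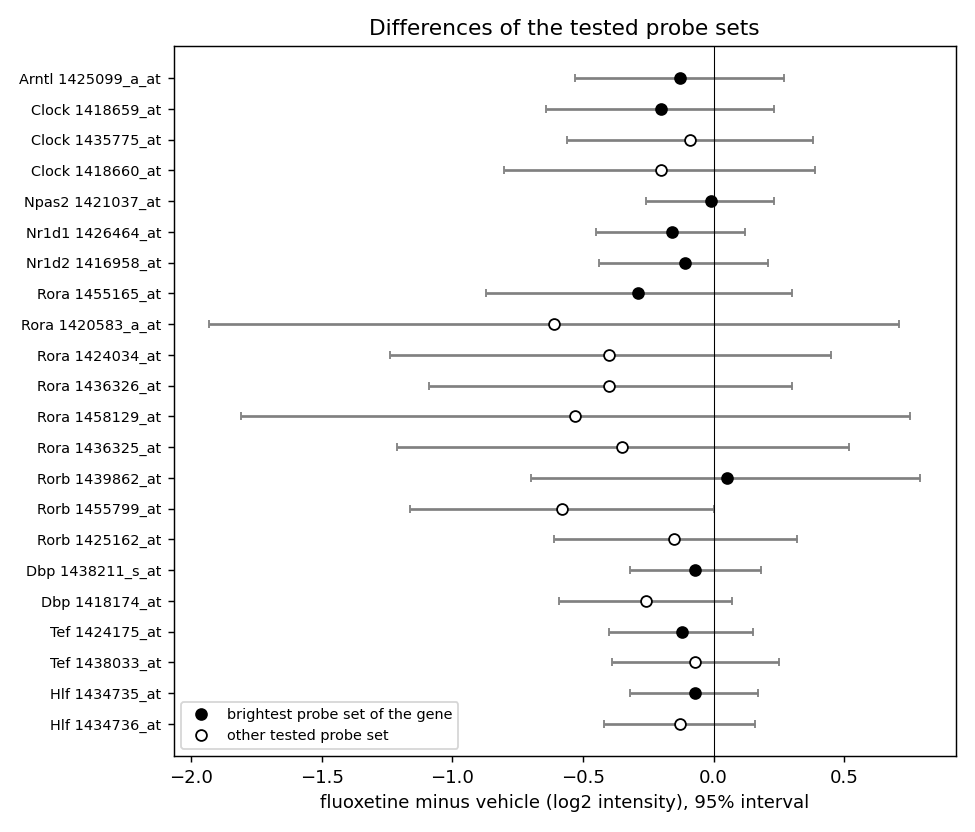
Difference of fluoxetine minus vehicle in log2 intensity (horizontal axis) for the 22 tested probe sets, with the 95% interval from limma as a grey bar, filled points for the brightest probe set of each gene and open points for its others. The points lie mostly left of 0, every interval reaches 0, and the bars of Rora and Rorb are long while those of Npas2, Dbp and Hlf are short.

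Among the activators, Arntl encodes the shared partner of the activating complex. Its tested probe set read 10.22, 10.01 and 10.52 with fluoxetine and 10.53, 10.45 and 10.16 with vehicle, in array order. The groups overlapped, with fluoxetine 2 lowest and vehicle 1 highest. The difference was −0.13 ± 0.17 (log2, SE, n = 3 arrays each), with a 95% interval of −0.53 to 0.27. Without fluoxetine 2 it was −0.010 and without fluoxetine 3 it was −0.262, so its size rested on single arrays. A second Arntl probe set lay at 1.73 to 1.80 on the 6 arrays, below the minimum.

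Clock, which encodes its usual partner, was read by 3 tested probe sets. The brightest gave 10.02, 10.07 and 10.32 with fluoxetine and 10.47, 10.58 and 9.97 with vehicle. The vehicle arrays thus enclosed all fluoxetine arrays, vehicle 3 being the lowest of the 6. The difference was −0.20 ± 0.18 (SE), and the other probe sets gave −0.20 ± 0.25 and −0.09 ± 0.20. Averaged over the 3 probe sets, fluoxetine 1 and vehicle 3 lay at −0.31 and −0.30 from the mean and vehicle 1 and 2 at 0.27 and 0.28. Both of the dimmer probe sets changed sign without fluoxetine 1 and vehicle 2, to 0.085 and 0.075. One more probe set, below the minimum, read 3.02 to 3.33 with fluoxetine and 2.79 to 2.84 with vehicle.

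Npas2, which can stand in for CLOCK in the forebrain, was the steadiest of the 10 genes across arrays. It read 8.39, 8.33 and 8.39 with fluoxetine and 8.44, 8.38 and 8.32 with vehicle, a range of 0.12 over all 6. The difference was −0.01 ± 0.10 (SE), and its 95% interval of −0.26 to 0.23 bounds a change that these arrays could have missed. Its pooled SD within groups, 0.0504, was at percentile 2.3 of all tested probe sets. Its sign turned to 0.044 after quantile normalization. A second probe set below the minimum read 2.85 to 3.16 with fluoxetine and 3.23 to 3.44 with vehicle.

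The Rev-erb receptors are repressors whose own genes the activators switch on. Nr1d1 read 7.98, 7.89 and 7.74 with fluoxetine and 8.15, 7.95 and 7.99 with vehicle. Only fluoxetine 1 reached into the vehicle range, and fluoxetine 3 was the lowest. The difference was −0.16 ± 0.12 (SE, unadjusted p = 0.226), a fold of 0.895, with a 95% interval of −0.45 to 0.12. It stayed between −0.258 and −0.095 in all alternatives that could move it. In the RefSeq table Nr1d1 overlaps Thra, the thyroid hormone receptor gene, and how far the probes tell the overlapping parts apart was not examined.

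Nr1d2 read 14.39, 14.80 and 14.50 with fluoxetine and 14.72, 14.70 and 14.61 with vehicle. The fluoxetine arrays held both the lowest and the highest of the 6 values, and the SD was 0.22 in that group against 0.06 with vehicle. The difference was −0.11 ± 0.14 (SE), or −0.025 without fluoxetine 1 and −0.234 without fluoxetine 2. A second probe set, below the minimum, ran from 3.67 to 5.60, again with fluoxetine 1 lowest and fluoxetine 2 highest.

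**Figure D2:**
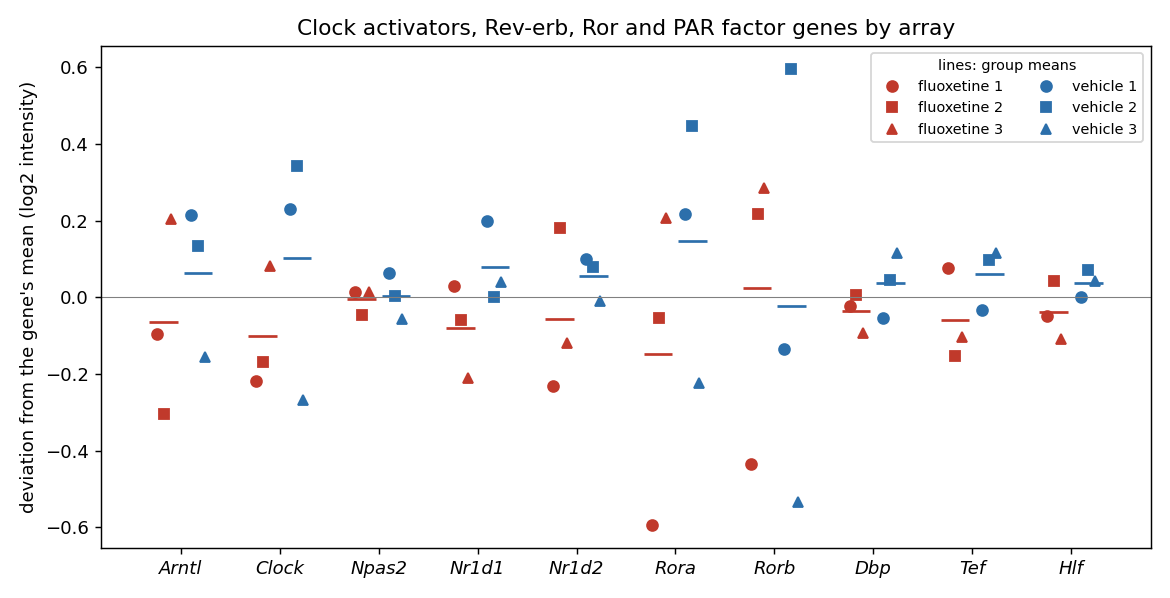
Deviation of each array from the gene's mean over 6 arrays in log2 intensity (vertical axis), for the brightest probe set of each of the 10 genes, with red symbols for fluoxetine, blue for vehicle, 1 symbol shape per replicate number and short lines for group means. The groups overlap for every gene, and Rora and Rorb spread over about 1.03 and 1.13 while Npas2, Hlf and Dbp spread over 0.12, 0.18 and 0.21.

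The Ror genes, activating counterparts of the Rev-erbs, varied most between arrays. The brightest Rora probe set read 10.42, 10.96 and 11.22 with fluoxetine and 11.23, 11.46 and 10.79 with vehicle. The ranges overlapped, fluoxetine 3 being level with vehicle 1. The difference was −0.29 ± 0.25 (SE), with a 95% interval of −0.87 to 0.30.

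The 6 tested probe sets of Rora shared their extremes. Fluoxetine 1 was the lowest array in 6 of 6 and vehicle 2 the highest in 6 of 6. Averaged over the 6 probe sets, the fluoxetine arrays lay at −0.92, −0.09 and 0.37 from the mean and the vehicle arrays at 0.23, 0.76 and −0.35. The widest was probe set 1420583_a_at, at 8.32, 9.62 and 10.50 with fluoxetine and 10.29, 10.61 and 9.37 with vehicle. Its range of 2.29 exceeded its difference of −0.61 ± 0.56 (SE) in size, and its SD within groups, 0.902, was at percentile 99.3 of all tested probe sets. Probe set 1458129_at stood at percentile 99.2, and the brightest at 87.9.

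The differences of the 6 Rora probe sets ran from −0.61 to −0.29, and were 0.054 to 0.297 without fluoxetine 1 and vehicle 2. Since these arrays held the lowest fluoxetine and the highest vehicle values, leaving them out could only raise the differences. Among the 7 tested transcripts of a list of 8 nuclear and non-coding RNAs, a list for RNA quality, Malat1, Meg3 and Snhg11 were low on both fluoxetine 1 and vehicle 3. Malat1 read 6.85 on fluoxetine 1, 6.99 on vehicle 3 and 8.85 to 9.85 elsewhere. Neat1, Miat, Snhg1 and Rian were not below their own means on vehicle 3, and Rian was not on fluoxetine 1. The averages over the 7, −0.43 on fluoxetine 1 and −0.33 on vehicle 3, thus came largely from a few transcripts. Their summed intensity was 5252 to 6947 with fluoxetine and 5879 to 7070 with vehicle. Their part in the values of Rora and Clock was not tested. The other 3 Rora probe sets lay between 2.77 and 3.70, below the minimum.

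**Figure D3:**
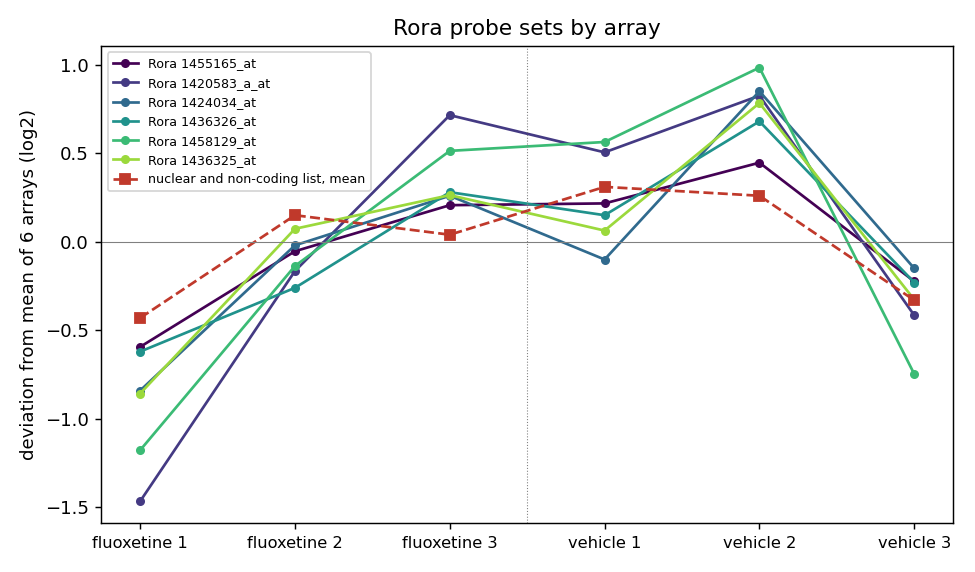
Deviation from the mean of the 6 arrays in log2 (vertical axis) for the 6 tested Rora probe sets, 1 coloured line each, and for the mean of 7 nuclear and non-coding transcripts (red dashes), with arrays along the horizontal axis and lines joining the points of 1 probe set only. Fluoxetine 1 is lowest and vehicle 2 highest for all 6 Rora probe sets, and vehicle 3 lies below the mean for each.

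Rorb encodes the Ror receptor of sensory cortex and layer 4, and its 3 tested probe sets disagreed. The brightest, 1439862_at, read 9.91, 10.56 and 10.63 with fluoxetine and 10.21, 10.94 and 9.81 with vehicle. Both the highest and the lowest array were vehicle arrays, and the difference was 0.05 ± 0.32 (SE), the sole positive one among the 22. It ranged from −0.209 without vehicle 3 to 0.585 without fluoxetine 1 and vehicle 2.

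Probe set 1455799_at of Rorb came closest to a difference of all 22. It read 9.31, 9.29 and 9.72 with fluoxetine and 10.32, 10.24 and 9.49 with vehicle. Vehicle 3 lay inside the fluoxetine range and the other vehicle arrays above it. The difference was −0.58 ± 0.25 (SE, unadjusted p = 0.05, adjusted p = 0.999 by limma), a fold of 0.67, with a 95% interval of −1.16 to 0.00. It stayed negative in all alternatives that could move it, at −0.843 without vehicle 3 and −0.401 without fluoxetine 1 and vehicle 2. The third, 1425162_at, gave −0.15 ± 0.20, and 0.017 without fluoxetine 2. Layer 4 markers, all 5 tested, did not move together on fluoxetine 1. Rspo1 read 5.55 there and 7.29 to 7.68 elsewhere, and Scnn1a 7.44 against 8.17 to 8.40. Cux2 had its highest value there, 12.01 against 10.79 to 11.39, so that the average of the 5 was −0.31 while their summed intensity, 5588, was the highest of the 6 arrays. Their part in the Rorb values was not tested.

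The PAR factors are the output arm of the clock. Dbp, the most strongly rhythmic of them in many tissues, had 2 tested probe sets. Probe set 1438211_s_at read 15.79, 15.82 and 15.72 with fluoxetine and 15.76, 15.86 and 15.93 with vehicle, close to the highest log2 value of the table, 16.60. The groups overlapped, and the difference was −0.07 ± 0.11 (SE), with a 95% interval of −0.32 to 0.18. Probe set 1418174_at read 11.84, 12.17 and 11.84 with fluoxetine and 12.18, 12.11 and 12.34 with vehicle. Fluoxetine 2 fell within the vehicle range and the other fluoxetine arrays below it. This difference was −0.26 ± 0.14 (SE, unadjusted p = 0.101 by limma), a fold of 0.835. It lay between −0.370 and −0.174 in all alternatives that could move it. Dbp overlaps Sphk2 in the RefSeq table, and the probes were not checked for that gene.

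Tef read 11.67, 11.44 and 11.49 with fluoxetine and 11.56, 11.69 and 11.71 with vehicle. Fluoxetine 1 lay among the vehicle arrays and the other fluoxetine arrays below them. The difference was −0.12 ± 0.12 (SE), with a 95% interval of −0.40 to 0.15. A dimmer tested probe set gave −0.07 ± 0.14, and 0.043 without fluoxetine 1. One more lay below the minimum, at 4.74 to 5.58 with fluoxetine and 5.06 to 5.84 with vehicle.

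Hlf was almost level. It read 12.74, 12.83 and 12.68 with fluoxetine and 12.79, 12.86 and 12.83 with vehicle, an overall range of 0.18. The difference was −0.07 ± 0.10 (SE), with a 95% interval of −0.32 to 0.17. Its second tested probe set read 11.20, 11.51 and 11.32 with fluoxetine and 11.43, 11.56 and 11.44 with vehicle, a difference of −0.13 ± 0.12. Among all tested probe sets, the spread within groups of the brightest probe set stood at percentile 3.3 for Hlf, 5.72 for Dbp, 14.8 for Tef, 18.7 for Nr1d1 and 36.5 for Nr1d2. The Dbp value comes from the probe set near the top of the scale, and its other probe set stood at percentile 36.4, as the second of Tef did at 33.6.

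Because the activators and the genes they switch on are known to peak at opposite times of day, the groups of genes were also set side by side within each array. The output genes Nr1d1, Nr1d2, Dbp, Tef and Hlf averaged −0.04, 0.00 and −0.13 from their means with fluoxetine and 0.04, 0.06 and 0.06 with vehicle. The groups did not overlap in this average, though 0.00 on fluoxetine 2 and 0.04 on vehicle 1 lay close. This is a description without a test. No array-wide shift was taken out of it. Such shifts, as medians over all tested probe sets, were −0.069 on fluoxetine 2 and 0.103 on vehicle 2. Each is larger in size than the gap in the output average between fluoxetine 2 and vehicle 1. The separation is thus no wider than such shifts. How often averages of other genes separate in this way was not computed. Arntl, Clock and Npas2 averaged −0.10, −0.17 and 0.10 with fluoxetine and 0.17, 0.16 and −0.16 with vehicle, and there the groups overlapped. Outputs minus activators gave 0.06, 0.18 and −0.23 with fluoxetine and −0.13, −0.10 and 0.22 with vehicle, a mean difference of 0.01 with SDs of 0.21 and 0.19. Within the fluoxetine arrays, fluoxetine 3 had the lowest outputs and the highest activators.

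**Figure D4:**
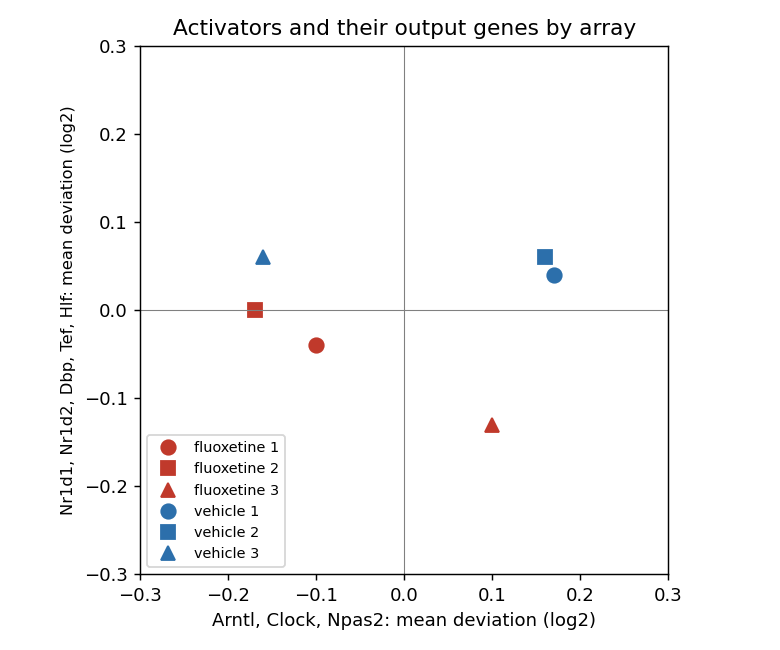
Mean deviation of Nr1d1, Nr1d2, Dbp, Tef and Hlf (vertical axis) against that of Arntl, Clock and Npas2 (horizontal axis), both in log2 from the mean of 6 arrays, with red symbols for the fluoxetine and blue for the vehicle arrays. The vehicle arrays lie level at 0.04 to 0.06 on the vertical axis while spreading from −0.16 to 0.17 on the horizontal one, and fluoxetine 3 lies lowest.

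Other genes of the clock were read from lists chosen with earlier results of these data known. The counts below 0 in these lists stand beside 68.5% of all genes. Among the repressors and their partners, 8 of 9 were tested and 7 of these 8 differed below 0, with a median of −0.21, and 0 passed. Per1, a core repressor that neuronal activity can also induce, differed by −0.49 ± 0.20 (SE), or −0.263 without fluoxetine 1 and vehicle 2. The transcriptional repressor Ciart differed by −0.25 ± 0.12, and the cryptochromes Cry1 and Cry2 by −0.29 ± 0.16 and −0.18 ± 0.11. The ARNTL paralog gene Arntl2 lay below the minimum.

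Of the kinases and ubiquitin ligases that set the lifetime of clock proteins, 8 of 10 were tested, 5 of them below 0, and 0 passed. Csnk1e, a kinase of the Per proteins, differed by −0.23 ± 0.18 (SE) and Fbxl21, a ligase subunit for cryptochromes, by 0.17 ± 0.12. Cofactors of the activators and receptors were tested in 10 of 12 cases, 9 of them below 0 with a median of −0.04, and 0 passed. The acetyltransferase gene Crebbp differed by −0.40 ± 0.20 and Hdac3, the deacetylase through which Rev-erbs repress, by −0.12 ± 0.12.

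Of 5 further genes known to be driven by the clock, 3 were tested, and all 3 differed below 0. Usp2, a deubiquitinase, read 11.23, 11.25 and 11.29 with fluoxetine and 11.39, 11.61 and 11.46 with vehicle. The groups did not overlap, and the difference was −0.23 ± 0.11 (SE, unadjusted p = 0.0743, adjusted p = 0.999 by limma). Wee1, a cell cycle kinase, differed by −0.12 ± 0.13. Nampt, an enzyme of NAD synthesis, read 9.98 on vehicle 3, just above that on fluoxetine 1, and 10.44 to 10.81 elsewhere. The same pair of arrays was low for Rora and Clock. Its difference was −0.10 ± 0.28.

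Of 9 genes reported as targets of PAR factors, Rev-erbs or RORs in the brain, 7 were tested, 5 of them below 0, and 0 passed. Fabp7, a fatty acid-binding protein of astrocytes and a reported REV-ERB target, read 11.33, 8.67 and 10.52 with fluoxetine and 8.33, 8.41 and 8.36 with vehicle. All fluoxetine arrays lay above the vehicle arrays, fluoxetine 2 by little, and the difference was 1.80 ± 0.60 (SE, unadjusted p = 0.0188, adjusted p = 0.999 by limma). Gfap, the astrocyte intermediate filament, read 12.13, 4.49 and 9.02 with fluoxetine and 4.70, 5.24 and 5.67 with vehicle. It was thus high on fluoxetine 1 and 3, as Fabp7 was, but lowest of the 6 on fluoxetine 2. Gfap was picked after its values were seen from a list of 8 astrocyte markers, of which 3 differed below 0 and whose median difference was 0.09. Of the 8, 5 were highest on fluoxetine 1 and 5 lowest on fluoxetine 2. The part of astrocyte RNA in the Fabp7 values was not tested. Calb1, a calcium buffer, differed by −0.14 ± 0.12, and Th, the enzyme that starts catecholamine synthesis, by −0.30 ± 0.37.

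The genes whose profiles over the 6 arrays lay nearest to 3 members were found by root mean square distance between mean-centred log2 values. Nearest to Dbp were Ndufc1, Cmc2 and Ppil1, at 0.020, 0.021 and 0.023, where the median gene lay at 0.17. Nearest to Nr1d1 were Ric8a, Unc45a and Cnst, at 0.029 to 0.036 with a median gene at 0.20. Nearest to Arntl were Vps18, Opa1 and Nudcd1, at 0.015 to 0.044 with a median gene at 0.24. With 6 arrays and 12248 genes, such neighbours describe these arrays only.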

How the data were processed

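Per the labels, TRAP RNA (15 ng per sample) was amplified and hybridised to single-colour Affymetrix arrays. The deposited table gives linear-scale intensity for each array, which, according to the submitters' processing notes, the authors had put through GCRMA. No version is stated. The method compresses low intensities and makes arrays more alike, so a shift shared by most genes can be hidden. The deposited arrays were still not fully alike, with upper quartiles of 498 to 574. Of the tested probe sets, 66.3% had a difference below 0 as deposited and 50.2% after quantile normalization. The log2 of each value was used as it stood. Array controls (64) were left out, as were probe sets with a geometric mean under 50. Fluoxetine minus vehicle was fitted with limma 3.58.1 (lmFit, then eBayes, with no block, in R 4.3.3, two-sided) over 22326 probe sets, with Benjamini-Hochberg adjustment and a threshold of 0.05, and the code was tested on simulated data. Gene names came from the platform annotation, and the entrez identifiers of all 10 members matched RefSeq. The number of arrays limits the precision.

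Named genes were the members, up to 4 genes of each pathway list by smallest unadjusted p, and the 3 nearest profiles of Dbp, Nr1d1 and Arntl. Gfap, Malat1, Meg3, Rian, Rspo1, Scnn1a and Cux2 were named after their values were seen. The members and lists were chosen with earlier results of these data known. Alternatives were other filters (none, 100, group means), an offset of 16, other scalings, a replicate block, other variance models, array weights, other choices of probe sets, leaving out arrays and a threshold of 0.10.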

Additional observations from a re-analysis of the deposited data

How the results depend on the processing

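The count of member probe sets past the threshold was 0 in every alternative run, the replicate block (0) and a threshold of 0.10 included. Member genes below 0 numbered 7 to 10 and their median lay between −0.164 and −0.039. With the replicate block, which leaves the differences of this balanced design unchanged, 9 genes were below 0 with a median of −0.118. Over the whole array, 350 of 22326 probe sets then had an unadjusted p under 0.05 by limma, against 563 of 22326 without the block. With no filter and no block it was 2631 of 45037. Equal replicate numbers did not pair arrays (correlations of deviations −0.253, −0.0275 and −0.502, against up to 0.431 between different numbers). Outputs minus activators ranged from −0.081 to 0.122. Of 393 recomputed values of member probe sets, 21 had the other sign. Many of the 393 could not change sign, since other filters, the replicate block and a trended, robust variance leave a probe set's difference as it was. Under quantile normalization the sign changes were in Npas2 (0.044) and Hlf (0.000 after rounding). With a common median of tested probe sets the sign change was in Npas2 (0.049). The common median shifts all probe sets of an array by the same amount. The median difference of all tested probe sets was −0.058 in the main setting, 0.0026 with that common median and −0.00099 under quantile normalization. Leaving out arrays, which takes away samples, gave ranges of −0.043 to 0.018 for Npas2, −0.453 to 0.085 and −0.255 to 0.075 for 2 Clock probe sets, −0.209 to 0.585 and −0.298 to 0.017 for 2 of Rorb and −0.150 to 0.043 for 1 of Tef. For Rora they were −1.123 to 0.230, −0.624 to 0.247, −0.598 to 0.297, −0.636 to 0.054, −0.474 to 0.082 and −1.040 to 0.276. Nampt ranged from −0.362 to 0.254 and Th from −0.533 to 0.104.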
